A study of Homo sapiens with 9 samples.

Results

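The genes described here are 9 components of the tight junction in HCT116 cells: the claudins CLDN1, CLDN2, CLDN3, CLDN4, CLDN7 and CLDN12, the transmembrane proteins OCLN and F11R, and the scaffold TJP1. They were chosen by name from the 33861 genes of the deposited table, and all 9 were among the 20988 genes with enough counts to be tested. HCT116 is an established human colorectal carcinoma cell line, and it is the sole line studied here. RNA sequencing after depletion of ribosomal RNA gave 9 libraries in 3 groups. The 3 libraries labelled NC are called control cells, although the labels do not say what NC stands for. Activin-treated cells (Activin, 3 libraries) received 100 ng/mL activin A for 5 days, and activin + HGF-treated cells (Activin+HGF, 3 libraries) received the same activin A treatment followed by 20 ng/mL hepatocyte growth factor (HGF) for 5 more days. No group with HGF alone was analysed here, so the 2 treated groups differ both in HGF and in the days in culture. Nothing in the labels says that libraries of a group came from separate cultures, so each p-value measures only the spread between these libraries, which may be technical.

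Tight junctions seal the space between neighbouring epithelial cells near their apical side. Claudins form the strands that close or selectively open this space, and most of them tighten the barrier while a few form pores for ions and water. Occludin and junctional adhesion molecules lie in or beside the same strands, and zonula occludens scaffolds tie them to the actin cytoskeleton. Loss of these components is often used as a sign that epithelial tumour cells are losing their epithelial character.

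The 9 libraries held 57453977 to 77016167 counts, and 3 counts corresponded to at most 0.0551 CPM (counts per 1000000 counts of a library, whose total is scaled with edgeR's TMM factor). The labelled cell type was checked with 9 colon epithelium markers. Their summed level was 1933 to 2234 CPM in the control group, 1297 to 2171 CPM after activin and 2299 to 2757 CPM after activin and HGF. KRT8, KRT18 and EPCAM made up most of this sum. KRT20, a marker of differentiated epithelium, was at 4.24 to 5.52 CPM in the control group and at 0.784 to 2.36 CPM in the treated groups, and the intestinal markers VIL1, CDH17 and LGALS4 were below 1 CPM in every library. Markers of endothelium (3 genes) and leukocytes (4 genes) summed to at most 1.71 and 2.33 CPM. Of 5 fibroblast markers 4 were in the table, and their sum of 25.0 to 27 CPM in the control group, 44.8 to 52.9 CPM after activin and 33.4 to 40.6 CPM after activin and HGF was nearly all COL1A1. COL3A1 moved the other way at a low level, with 0.964 to 2.63 CPM in the control group, at most 0.0407 CPM after activin and 0.257 to 0.421 CPM after activin and HGF. The part of these markers in the results was not tested. In a bulk culture, fewer cells of a kind and less RNA per cell cannot be told apart.

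Activin replicate 2 stood apart from its group by transcript length. Measured against the other libraries of its group, its 3112 genes with a longest transcript of at least 5000 bases had a median log2 deviation of -0.28, and its 1652 genes with a longest transcript of at most 2000 bases had one of 0.45. The difference between the long and the short genes was -0.73 in this library and -0.14 to 0.46 in the other 8. Calls and signs that changed without this library are given with and without it. CLDN4 and F11R stood apart in another way, since their deposited counts differed between libraries of the same group by far more than those of nearly all other genes.

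CLDN7, a claudin that binds the adhesion protein EPCAM and is found along the lateral membrane, gave the clearest change. It lies at chr17:7259903-7263204 on the minus strand (the members' coordinates are those of the table, whose genome build is not given in the sources used here and of which 8 of 9 share a start or an end with GENCODE v29 on GRCh38). The 3 control libraries held 60.0, 54.1 and 51.1 CPM. The activin-treated libraries held 208, 329 and 178 CPM, and the activin + HGF-treated libraries held 365, 212 and 329 CPM. Every treated library thus lay above every control library, and the 2 treated groups overlapped. CLDN7 rose 4.33-fold with activin (log2 fold change 2.11, SE 0.271, edgeR adjusted p = 0.000694). It was 5.48-fold higher in activin + HGF-treated cells than in control cells (log2 fold change 2.45, SE 0.274, edgeR adjusted p = 0.000184). The step from activin to activin + HGF did not pass the test (log2 fold change 0.34, SE 0.260, edgeR adjusted p = 0.417, or 0.64 without Activin replicate 2). Both increases over control cells passed in all 22 alternative analyses, including those without any single library. Reads of ELP5, which ends within the last bases of CLDN7 on the opposite strand, could not be told apart there, since no source used here says that counting used strand; ELP5 held 1944 to 3176 counts and CLDN7 at least 3638.

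CLDN7 has 2 RefSeq promoter windows, and bases from the second are shown because it carries more copies than most promoters of the hexamer CAGGTG, the E-box that the SNAI and ZEB factors recognise. The search used RefSeq promoter windows of 250 bases before each annotated start on GRCh38.p14 and read both strands, so that a match appears as CAGGTG or as CACCTG. Of the members 8 had windows, 14 in all, and F11R had none. The hexamer was present in 17.5% of 35116 windows of all genes and in 4 of the 14 windows of the members. The first window of CLDN7 (chr17:7263214-7263463, minus strand), which lies just outside the gene's span in the table, held 0 matches. The second (chr17:7262479-7262728), before a start further downstream and inside that span, held 4 matches, a number reached or passed by 43 windows, 0.122% of all. They begin 174, 135, 20 and 9 bases before the start, and the last 2 are printed together. Matches are in capitals, each line reads 5′ to 3′ on the strand of the gene, and OCLN and TJP1 follow as the other members with a match.
CLDN7, chr17:7262638-7262661: cttcctcctCACCTGggcaaggag
CLDN7, chr17:7262599-7262622: cttccggttCAGGTGagtgtccct
CLDN7, chr17:7262478-7262502: tactCAGGTGcgcccCACCTGtccg
OCLN, chr5:69492505-69492528: tccgagtttCAGGTGaattggtca
OCLN, chr5:69492648-69492671: aggacgcagCAGGTGggactcgcg
TJP1, chr15:29969123-29969146: gccggcgcgCAGGTGgcccggcct
The pair nearest to the downstream start of CLDN7 has its matches on opposite strands. The match of TJP1 is in its window 1 (chr15:29969050-29969299), which lies outside the gene's deposited span, whose end is at 29956294. Windows 2, 3 and 4 of TJP1 held 0 matches. CLDN1, CLDN2, CLDN3, CLDN4 and CLDN12 had no match in their windows, which says only that these letters are not there. CAGAC, the short element read by SMAD proteins, was present in 5 of the 14 windows and in 38.0% of all windows. AACNNGTT, the element of grainyhead-like factors, was in 0 of the 14 windows and in 3.0% of all. A match is a string of letters and was not tested for binding.

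**Figure D1:**
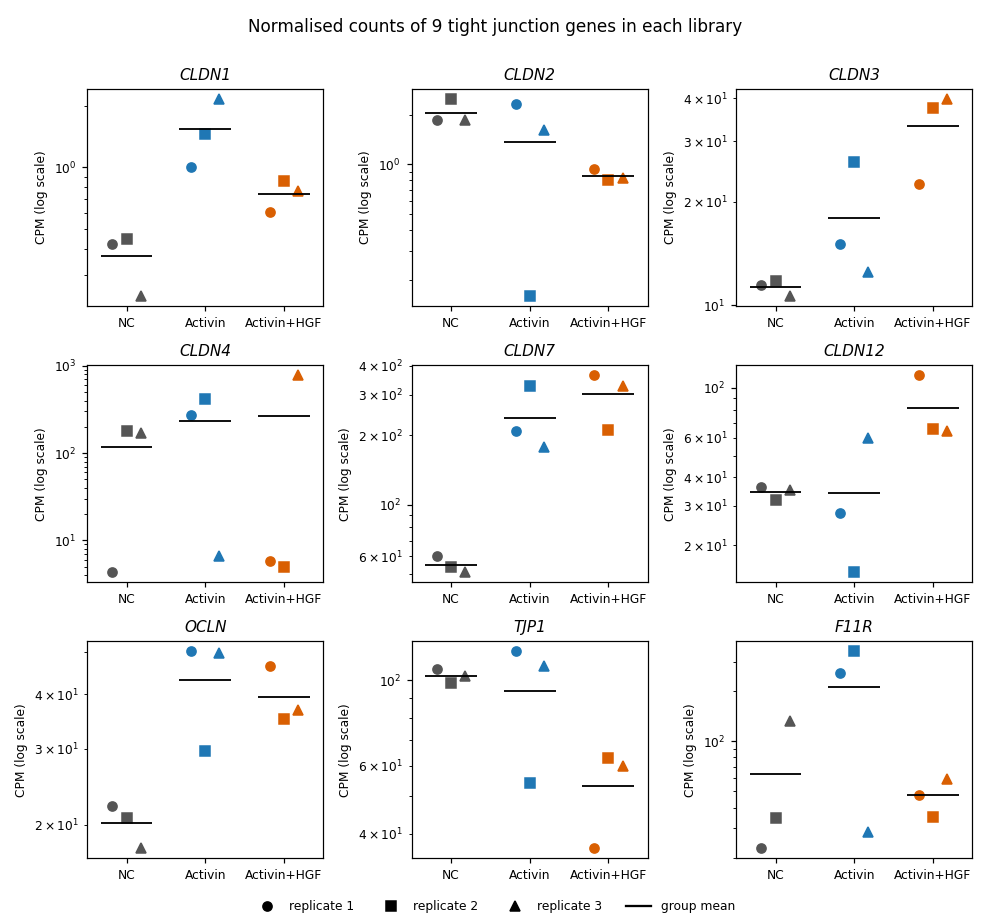
TMM-scaled CPM (log scale on each vertical axis) of the 9 genes in each library, by group, where symbols mark the replicate number and the horizontal line the group mean. CLDN7 and OCLN lie higher in all 6 treated libraries than in the control libraries, CLDN3 is highest in 2 activin + HGF-treated libraries, TJP1 is lower in the 3 activin + HGF-treated libraries than in control cells, and CLDN4 splits within every group.

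CLDN3, a barrier-tightening claudin encoded by a single exon at chr7:73768997-73770270 on the minus strand, was higher after both treatments in turn. In control cells it was at 11.5, 11.7 and 10.6 CPM, in activin-treated cells at 15.1, 26.2 and 12.5 CPM, and in activin + HGF-treated cells at 22.5, 37.6 and 39.8 CPM. No treated library reached down to the control range, and one activin-treated library, replicate 2, lay above the lowest activin + HGF-treated one. Against control cells, CLDN3 rose 2.95-fold in activin + HGF-treated cells (log2 fold change 1.56, SE 0.305, edgeR adjusted p = 0.00368), and this passed in all 22 alternatives. Activin alone gave a log2 fold change of 0.67 (SE 0.300, edgeR adjusted p = 0.157), or 0.29 without Activin replicate 2, and activin + HGF against activin gave 0.89 (SE 0.300, edgeR adjusted p = 0.0755). The last comparison passed without Activin replicate 2 (log2 fold change 1.27, edgeR adjusted p = 0.0113), without Activin+HGF replicate 1 (1.11, edgeR adjusted p = 0.0464) and with DESeq2 (0.88, adjusted p = 0.0279).

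CLDN3 and CLDN7 also have the shortest longest transcripts of the members, 1274 and 1923 bases, and short genes as a whole had higher values in activin + HGF-treated cells. The 1652 short genes had a median log2 fold change of 0.46 in activin + HGF against activin and 0.29 in activin + HGF against control, beside -0.12 and -0.16 for the 3112 long genes. Scaling of every library within 10 bins of transcript length was added after seeing the data. With it, the log2 fold changes in activin + HGF against control were 1.42 for CLDN3 and 2.30 for CLDN7, and both passed. The part of transcript length in these changes was not tested.

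CLDN1, a barrier claudin located at chr3:190305707-190322446 on the minus strand, was present at a very low level and rose with activin. Control cells gave 26, 30 and 19 deposited counts, activin-treated cells 74, 91 and 162, and activin + HGF-treated cells 33, 59 and 49. The CPM values of the 3 groups did not overlap, with activin highest, activin + HGF between and control lowest. CLDN1 rose 4.17-fold with activin (log2 fold change 2.06, SE 0.465, edgeR adjusted p = 0.0125), although without NC replicate 3 the value was 1.81 with an edgeR adjusted p of 0.0653. Its level in activin + HGF-treated cells gave log2 fold changes of -1.05 against activin (SE 0.449, edgeR adjusted p = 0.146) and 1.01 against control (SE 0.458, edgeR adjusted p = 0.119). In FPKM, which is per length, it reached at most 0.58, beside 18.38 or more for CLDN7.

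CLDN2, the claudin that forms a pore for cations and water, pointed the other way at a similarly low level. It lies at chrX:106900164-106930859 on the plus strand, inside the span of MORC4 on the opposite strand. Control cells gave 113, 167 and 149 counts, the activin-treated libraries 171, 10 and 122, and the activin + HGF-treated libraries 51, 55 and 53. The activin + HGF range (0.8 to 0.937 CPM) lay below the control range (1.85 to 2.48 CPM), and Activin replicate 2 lay far below both other libraries of its group. CLDN2 did not pass in any of the 3 comparisons with all 9 libraries. Its log2 fold change was -1.27 in activin + HGF against control (SE 0.688, edgeR adjusted p = 0.188) and -0.68 in activin + HGF against activin (SE 0.683, edgeR adjusted p = 0.546). Without Activin replicate 2 both passed, at -1.27 (edgeR adjusted p = 0.0114) and -1.21 (edgeR adjusted p = 0.0329), and the first also passed in a fit of the control and activin + HGF libraries alone (-1.26, edgeR adjusted p = 0.0151). With activin the log2 fold change was -0.59 (SE 0.676, edgeR adjusted p = 0.617), and -0.06 without that library. MORC4 held 661 to 1491 counts, more than CLDN2 in every library, and without strand any of its reads over positions shared with CLDN2 could count for either.

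CLDN12, a claudin that lacks the usual carboxy-terminal tail for binding scaffolds, lies at chr7:90383721-90513402 on the plus strand. The control libraries held 36.3, 31.7 and 35.2 CPM, the activin-treated libraries 27.9, 15.2 and 59.7 CPM, and the activin + HGF-treated libraries 114, 65.8 and 64.3 CPM. The activin + HGF-treated libraries were above all others, while the activin-treated libraries spread to both sides of the control range. CLDN12 rose 2.36-fold in activin + HGF-treated cells against control (log2 fold change 1.24, SE 0.420, edgeR adjusted p = 0.0458). That call was close to the threshold and was lost in 11 of 22 alternatives, among them those without any one of the control libraries, any one of the activin + HGF-treated libraries or Activin replicate 1 (edgeR adjusted p = 0.0553 to 0.158). Against activin the log2 fold change was also 1.24 (SE 0.420, edgeR adjusted p = 0.0770), and without Activin replicate 3 it was 1.82 (edgeR adjusted p = 0.0297). With activin alone it was -0.01 (SE 0.414), and 0.35 without Activin replicate 2. The ends of the gene overlap GTPBP10 (897 to 2325 counts) and CDK14 (401 to 985 counts) on the same strand.

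CLDN4, a claudin that limits sodium passage, passed in no comparison. It lies at chr7:73799542-73832684 on the plus strand, and no other gene of the table overlaps it. The control libraries held 4.31, 178 and 170 CPM, the activin-treated libraries 271, 422 and 6.52 CPM, and the activin + HGF-treated libraries 5.80, 4.91 and 781 CPM. Each group thus held libraries near 5 CPM and libraries above 100 CPM, with nothing between, and the highest library exceeded the lowest by 41.4, 64.7 and 159 times within the 3 groups. Among 9965 genes with a mean of at least 10 CPM, 0.0803% had a largest within-group ratio at least as high as that of CLDN4. The deposited FPKM values showed the same gaps, with a ratio of library-scaled count to FPKM that varied by a factor of no more than 1.05. Its neighbour METTL27 showed no such split, with 4.11 to 5.86 CPM in the control group, 7.60 to 16.7 CPM after activin and 6.25 to 7.97 CPM after activin and HGF. The cause of the split was not tested. The fitted log2 fold changes were 0.99, 0.18 and 1.16 with standard errors of 1.80, 1.79 and 1.81. The first 2 were 0.24 and 0.93 without Activin replicate 2, and leaving out Activin+HGF replicate 3 turned the second and the third to -5.44 and -4.46.

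**Figure D2:**
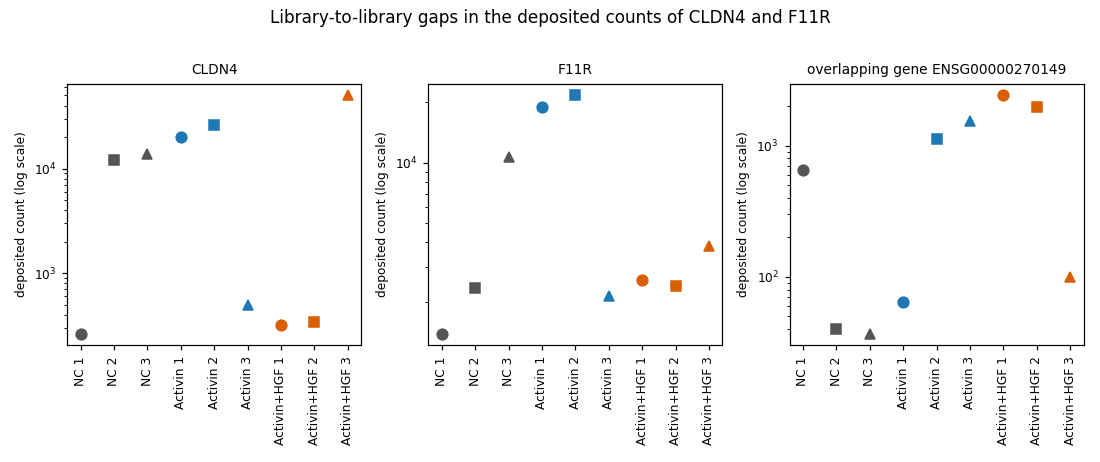
Deposited counts (log scale) of CLDN4, of F11R and of the gene that overlaps F11R in each of the 9 libraries, in the order of the groups. CLDN4 is at 264 to 490 counts in 4 libraries and at 11999 or more in the other 5, and F11R and its overlapping gene are each high in libraries of more than one group.

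F11R, the junctional adhesion molecule JAM-A, was the other member with such gaps. It lies at chr1:160995211-161021343 on the minus strand. The control libraries held 22.8, 34.9 and 133 CPM, the activin-treated libraries 258, 347 and 28.7 CPM, and the activin + HGF-treated libraries 47.7, 35.1 and 59.5 CPM. The low activin-treated library, replicate 3, fell within the control range, and one control library, replicate 3, was above all activin + HGF-treated libraries. The largest within-group ratio was 12.1, which 0.652% of the 9965 genes reached. The log2 fold changes were 1.73 with activin (SE 0.806, edgeR adjusted p = 0.173), -2.16 for activin + HGF against activin (SE 0.817, edgeR adjusted p = 0.106) and -0.42 for activin + HGF against control (SE 0.786, edgeR adjusted p = 0.721). The first 2 passed only without Activin replicate 3, at 2.29 (edgeR adjusted p = 0.0397) and -2.75 (edgeR adjusted p = 0.0426), and without Activin replicate 2 they were 1.17 and -1.60.

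A gene on the same strand, ENSG00000270149 (chr1:160997957-161038962), runs through most of F11R, and reads from shared exons can be counted for either. Control cells gave 656, 40 and 37 counts for it, activin-treated cells 64, 1116 and 1534, and activin + HGF-treated cells 2416, 1972 and 99. It was thus high in some libraries where F11R was low, but also in Activin replicate 2, where F11R was at its highest. Summing both genes, a choice made after seeing the data, left the 3 comparisons of F11R without a call and turned the log2 fold change of activin + HGF against control from -0.42 to 0.10.

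Occludin (OCLN), a membrane protein with several spans that regulates rather than builds the strands, rose with activin. It lies at chr5:69492292-69558104 on the plus strand. The control libraries held 22.1, 20.7 and 17.7 CPM, the activin-treated libraries 50.3, 29.7 and 49.8 CPM, and the activin + HGF-treated libraries 46.4, 35.0 and 36.8 CPM. All 6 treated libraries were above the control range, and the treated groups overlapped. OCLN rose 2.15-fold with activin (log2 fold change 1.10, SE 0.232, edgeR adjusted p = 0.00910) and was 1.95-fold higher in activin + HGF-treated cells than in control cells (0.97, SE 0.231, edgeR adjusted p = 0.0102). Both fell just short without NC replicate 3, at 1.01 (edgeR adjusted p = 0.0503) and 0.88 (edgeR adjusted p = 0.0516). The second was 0.68 with scaling by library totals (edgeR adjusted p = 0.0652) and 0.51 to 0.64 with limma on FPKM (adjusted p = 0.0704 to 0.162). Activin + HGF against activin gave -0.14 (SE 0.229, edgeR adjusted p = 0.738). Counts of OCLN are uncertain because of OCLNP1, a partial copy on the same chromosome, which held 0 to 172 counts where OCLN held 1353 to 3746. How many reads of the copy were counted for OCLN, or the reverse, was not tested.

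TJP1 (ZO-1), the scaffold that links claudins and occludin to actin, was the only member called lower in the main edgeR fit. CLDN2 had a larger drop in activin + HGF against control (-1.27) that did not pass there. The coordinates, levels and fold changes that follow are those of TJP1. It lies at chr15:29699367-29956294 on the minus strand. Its level was 107, 98.6 and 102 CPM in the control libraries, 119, 54.0 and 109 CPM in those with activin, and 36.7, 62.9 and 59.9 CPM in those with activin and HGF. The activin + HGF-treated libraries were below all control libraries, and only Activin replicate 2 reached their range. TJP1 fell by 0.95 on the log2 scale in activin + HGF-treated cells against control, or 1.93-fold (SE 0.295, edgeR adjusted p = 0.0326). The call was lost in 7 of 22 alternatives, among them those without any one control library, Activin+HGF replicate 1 or Activin+HGF replicate 3 (edgeR adjusted p = 0.0534 to 0.0970). With activin alone the log2 fold change was -0.13 (SE 0.292, edgeR adjusted p = 0.820), and without Activin replicate 2 it was 0.15. Activin + HGF against activin gave -0.82 (SE 0.294, edgeR adjusted p = 0.0903), which passed without Activin replicate 2 (-1.10, edgeR adjusted p = 0.00978), with library totals (-1.18, edgeR adjusted p = 0.0498) and with DESeq2 (-0.84, adjusted p = 0.0368).

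TJP1 has the longest transcript of the members, 7950 bases, and long genes as a group were slightly lower in activin + HGF-treated cells. With scaling within bins of transcript length its log2 fold change against control was -0.73 (edgeR adjusted p = 0.0410). The part of transcript length in the change of TJP1 was not tested. Annotated RNAs on either strand within TJP1 held at most 656 counts in a library, beside at least 1997 for TJP1.

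**Figure D3:**
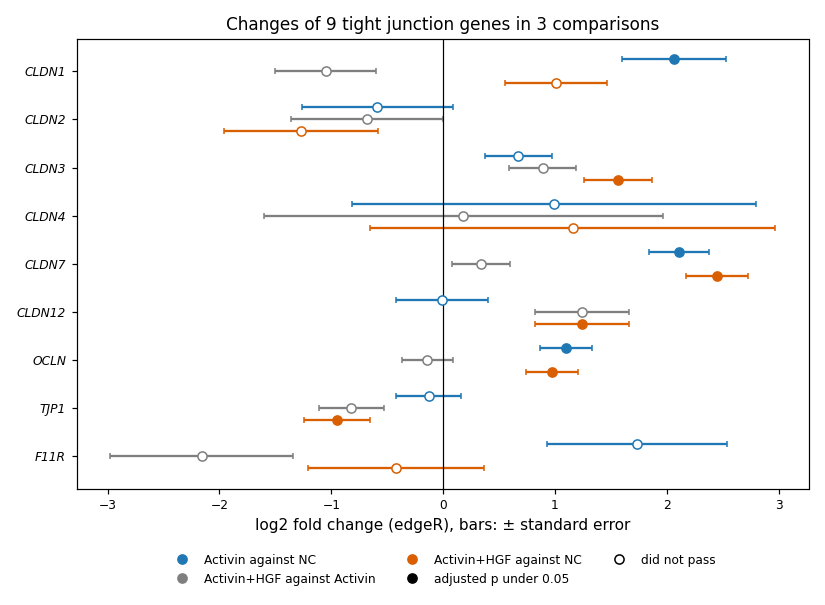
Log2 fold changes of the 9 genes from edgeR (horizontal axis, bars are standard errors) in the 3 comparisons, with filled points where the adjusted p was under 0.05. CLDN7 and OCLN passed in both comparisons with control, CLDN1 with activin alone, CLDN3 and CLDN12 with activin + HGF, TJP1 fell with activin + HGF, and no point of activin + HGF against activin is filled.

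Counted over the members, activin against control gave 3 of 9 genes higher (CLDN1, CLDN7 and OCLN) and 0 lower, where 18.0% of all genes tested were called (9.58% higher and 8.41% lower). At an unadjusted edgeR p under 0.05 there were 4 higher (31.2% of all genes in either direction) and 0 lower, and DESeq2 and limma called 0 lower as well. The median log2 fold change was 0.99 over the members and 0.02 over all genes tested. That 0.99 is the value of CLDN4 itself (SE 1.80, edgeR adjusted p = 0.769), which split within every group and gave 0.24 without Activin replicate 2. The median is thus no measure of a shift of the whole set. In 4 members the libraries of the groups did not overlap, as in 42.2% of all genes.

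Activin + HGF against control gave 5 of 9 genes called, 4 higher (CLDN3, CLDN7, CLDN12 and OCLN) and 1 lower (TJP1), against 31.4% of all genes tested (16.4% higher and 15.0% lower). An unadjusted p under 0.05 added none to these 5 (42.4% of all genes). The medians were 1.01 for the members, which is the value of CLDN1 and did not pass, and -0.03 for all genes. The number of members called was 2 without NC replicate 3, 3 without NC replicate 1, NC replicate 2, Activin+HGF replicate 1 or Activin+HGF replicate 3, and 6 without Activin replicate 2. Of 9 members, 7 did not overlap between the groups, as in 53.8% of all genes.

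Activin + HGF against activin, the comparison of the treated groups with each other, gave 0 of 9 members called by edgeR, where 12.9% of all genes were called (7.41% higher and 5.45% lower). At an unadjusted p under 0.05 there were 5 of 9 (CLDN3 and CLDN12 higher, CLDN1, TJP1 and F11R lower), as for 30.1% of all genes. DESeq2 called 3 (CLDN3, CLDN12 and TJP1) and limma on FPKM called 0, where its median over all genes was -0.22 on log2(FPKM + 1). Leaving out Activin replicate 2 gave 3, leaving out Activin replicate 3 gave 2 and leaving out Activin+HGF replicate 1 gave 1. In 2 members, CLDN1 and CLDN12, the groups did not overlap, as in 32.7% of all genes. The median log2 fold change of the members was -0.14 and that of all genes -0.04. With a fold of at least 2 also required, 3, 0 and 3 members were called in activin against control, activin + HGF against activin and activin + HGF against control, where 11.4%, 8.09% and 21.5% of all genes were. These comparisons share libraries in pairs, and a comparison of 3 libraries with 3 by exact permutation of one gene cannot give a two-sided p below 0.1.

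The order of the members by level was taken from FPKM, which allows genes of different length to be compared within a library. In control cells CLDN7 (18.38 to 22.13 FPKM) was clear of TJP1 (7.68 to 8.73 FPKM), whose range overlapped that of CLDN3 (7.48 to 8.27 FPKM). Below them came CLDN12 (4.14 to 4.97 FPKM) and OCLN (2.34 to 3.0 FPKM), each apart from its neighbour, then CLDN2 (0.48 to 0.64 FPKM) and CLDN1 (0.06 to 0.11 FPKM). F11R (4.14 to 23.55 FPKM) and CLDN4 (0.84 to 33.3 FPKM) had no place in this order that held in all 3 libraries. In activin + HGF-treated cells, with CLDN4 (0.80 to 126.1 FPKM) again set aside, CLDN7 (66.32 to 100.08 FPKM) and CLDN3 (11.58 to 23.74 FPKM) led without overlap between them, and TJP1 (2.13 to 4.35 FPKM) had moved down to overlap with OCLN (4.04 to 4.5 FPKM).

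Ratios between members within each library need no scaling between libraries, but they can carry an effect of transcript length. CLDN7 and TJP1 have longest transcripts of 1923 and 7950 bases. Short genes as a whole had a median log2 fold change of 0.46 in activin + HGF against activin, beside -0.12 for long genes. The part of length in these ratios was not tested. CLDN7 over TJP1 was 2.53, 2.48 and 2.26 in control cells, 7.92, 27.6 and 7.38 after activin and 45.0, 15.2 and 24.8 after activin and HGF. OCLN over TJP1 was 0.344, 0.35 and 0.287, then 0.704, 0.915 and 0.762, then 2.11, 0.929 and 1.02 in the same order. The 3 groups did not overlap in the second ratio, although the treated groups were parted only by 0.915 and 0.929. No share over other pairs of genes was computed. In the first ratio the outlying activin-treated library was again replicate 2. CLDN3 over CLDN7 went down from 0.374, 0.425 and 0.407 in control cells to 0.142, 0.156 and 0.138 with activin. It was 0.121, 0.347 and 0.237 in activin + HGF-treated cells, a range that spans the activin values.

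**Figure D4:**
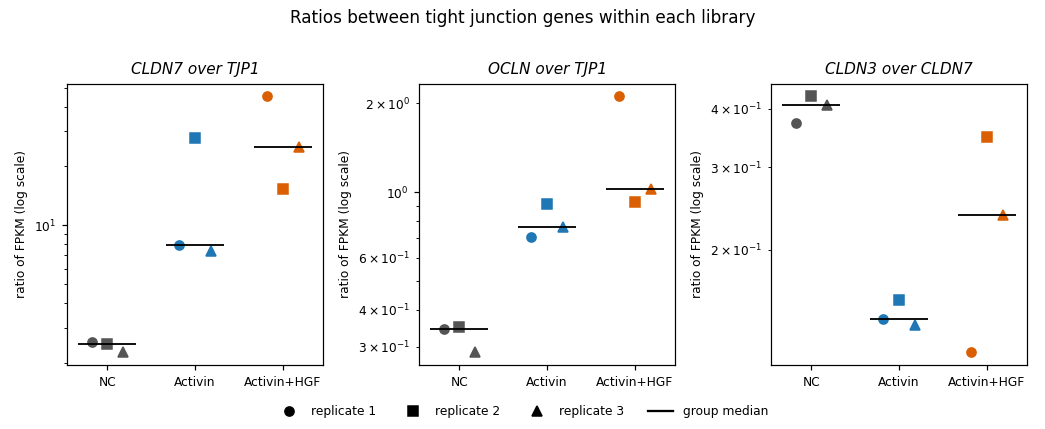
Ratios of deposited FPKM between 2 members within each library (log scale), by group, with a line at the group median. The medians of CLDN7 over TJP1 are 2.48, 7.92 and 24.8, those of OCLN over TJP1 0.344, 0.762 and 1.02, and CLDN3 over CLDN7 is at most 0.156 in the activin-treated libraries.

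With CLDN4 set aside, the other 5 claudins of the list summed to 31.1 to 36.0 FPKM in the control group, 90.3 to 133 FPKM after activin and 97.4 to 131 FPKM after activin and HGF. CLDN7 made up 59.1% to 61.5%, 78.3% to 85.0% and 68.1% to 80.7% of this sum in the 3 groups. CLDN1 and CLDN2 together gave 1.67% to 2.34% without treatment and 0.244% to 0.370% after activin and HGF. CLDN4, where it was high, accounted for 36.4% to 51.1% of the sum over all 6 claudins, and for at most 2.28% where it was low.

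Besides the members the table lists 16 claudins, of which 6 had enough counts to be tested. None passed with activin against control or with activin + HGF against activin by edgeR, DESeq2 or limma on filtered FPKM, and at an unadjusted edgeR p under 0.05 there were 2 and 1, all higher. In activin + HGF against control 3 rose: CLDN6 (log2 fold change 2.70, edgeR adjusted p = 0.0160), CLDN9 (1.70, edgeR adjusted p = 0.0455) and CLDN15 (0.74, edgeR adjusted p = 0.0354). Over all genes 18.0%, 12.9% and 31.4% were called in activin against control, activin + HGF against activin and activin + HGF against control. CLDN6 and CLDN9 were on average below 2 CPM in every group, and CLDN15, a claudin of intestinal epithelium that forms cation pores, went from 11.9 to 19.9 CPM. CLDN9 and CLDN15 did not pass with limma on FPKM, and CLDN6 was below its filter on low values.

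Of 32 other tight junction proteins 30 were tested. With activin 3 rose and 2 fell, with activin + HGF against activin 2 rose and 0 fell, and with activin + HGF against control 7 rose and 1 fell. Of all genes tested, 9.58% were called higher and 8.41% lower in the first comparison. The shares were 7.41% and 5.45% in the second, and 16.4% and 15.0% in the third. In the middle comparison 3 were lower at an unadjusted edgeR p under 0.05, 2 by DESeq2 and 1 by limma on FPKM, and limma called 0 higher, where 7 were higher at an unadjusted edgeR p under 0.05 and 5 by DESeq2. The medians over the list were 0.10, 0.09 and 0.05, beside 0.02, -0.04 and -0.03 over all genes. PARD6B, a polarity protein of the apical Par complex, rose from 13.6 CPM in control cells to 33.7 CPM with activin (log2 fold change 1.3, edgeR adjusted p = 0.00259) and stood at 51.1 CPM with activin + HGF (1.9 against control, edgeR adjusted p = 0.000211). LSR, which seals the corners where 3 cells meet, followed the same order with 94.0, 161 and 264 CPM and log2 fold changes against control of 0.77 and 1.49. TJP3, a smaller relative of TJP1, was at 43.3, 46.9 and 86.2 CPM, and it rose against activin (0.88, edgeR adjusted p = 0.0310, a call not made by limma), where TJP1 had -0.82 and did not pass. MAGI1, another scaffold, fell by 0.85 on the log2 scale with activin (edgeR adjusted p = 0.0123) and by 0.95 with activin + HGF against control (edgeR adjusted p = 0.00444).

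A list of 5 genes held EPCAM, the membrane partner of CLDN7, and the matriptase protease system that acts on it (ST14, SPINT1, SPINT2 and PRSS8). All 5 rose in activin + HGF against activin by edgeR, where 7.41% of all genes were called higher, and 2 of them passed with limma on FPKM. Their median log2 fold change was 0.77, beside -0.04 for all genes and 0.46 for short genes as a whole. Length-binned values are not given here for this list. In activin + HGF against control 4 rose, where 16.4% of all genes were called higher. With activin against control 0 passed by edgeR, where 18.0% of all genes were called. At an unadjusted edgeR p under 0.05, 2 were higher, and DESeq2 called 1 and limma 2. EPCAM held 253, 251 and 265 CPM in control cells, 186, 228 and 204 CPM after activin and 495, 371 and 388 CPM after activin and HGF. Its highest group did not overlap the others. It had not passed with activin (-0.32, edgeR adjusted p = 0.217) and rose 2.03-fold against activin with HGF (log2 fold change 1.02, edgeR adjusted p = 0.00670). For CLDN7 the same comparisons gave 2.11 and 0.34, and the difference between the genes was not tested. PRSS8 (prostasin), a membrane-anchored protease, had the largest change of the list. It rose against activin (1.22, edgeR adjusted p = 0.0164) and against control (1.99, edgeR adjusted p = 0.000508), with group means of 36.2, 61.4 and 143 CPM.

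Among the other junctions, 2 of 11 adherens junction genes rose and 2 fell with activin, 1 rose and 0 fell in activin + HGF against activin (0 lower also at an unadjusted edgeR p under 0.05 and by DESeq2, and 0 higher and 1 lower by limma on FPKM), and 3 rose and 1 fell in activin + HGF against control. NECTIN3, an immunoglobulin-like adhesion protein, fell by 1.47 on the log2 scale with activin (edgeR adjusted p = 0.000818), and NECTIN2 rose with activin + HGF (1.47 against control, edgeR adjusted p = 0.00146). Of 10 desmosome genes 1 fell with activin, 1 rose in activin + HGF against activin, and 1 rose and 2 fell in activin + HGF against control. The gene that rose was PERP, a membrane protein of desmosomes (1.02 against activin, edgeR adjusted p = 0.00705). Actomyosin regulators gave 1 gene of 9 higher with activin, 2 lower in activin + HGF against activin, and 3 higher and 4 lower in activin + HGF against control. Beside the counts of these lists, 18.0%, 12.9% and 31.4% of all genes were called in the 3 comparisons in the same order.

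Transcriptional regulators of epithelial junction genes were tested for 12 of 14 listed genes. With activin 4 rose (SNAI2, GRHL1, OVOL1 and ELF3), and with activin + HGF against control 6 rose (the same 4, SNAI1 and TWIST1). Of all genes, 9.58% and 16.4% were called higher in these comparisons, and 12.9% were called in activin + HGF against activin. None passed in activin + HGF against activin by edgeR, with 2 higher at an unadjusted p under 0.05, 1 called by DESeq2 and 0 by limma. SNAI2, a repressor that binds CAGGTG, held 0.18, 0.342 and 0.286 CPM without treatment, 4.46, 3.99 and 2.65 CPM after activin and 5.05, 3.94 and 3.68 CPM after activin and HGF. It was higher in every treated library than in control cells. Windows of CLDN7, OCLN and TJP1 hold this hexamer, and whether SNAI2 binds there was not tested. The log2 fold change with activin was 3.77 for SNAI2 (edgeR adjusted p = 0.000175), and GRHL1, an activator of epithelial genes, stood at 1.42 (edgeR adjusted p = 0.00473). SNAI1 rose in activin + HGF-treated cells against control (2.10, edgeR adjusted p = 0.00303). Whether these regulators act on the members was not tested.

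**Figure D5:**
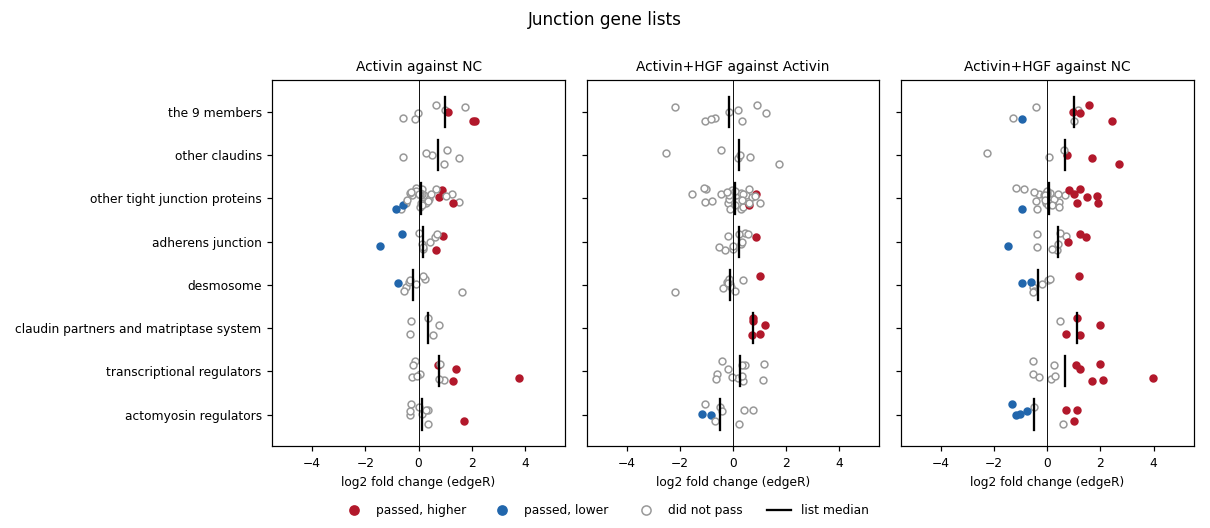
Log2 fold changes from edgeR (horizontal axis) of the tested genes of 8 lists in the 3 comparisons, where each point is a gene, red and blue points passed as higher and lower, open points did not pass and black bars are list medians. All 5 points of the claudin partner list are red in activin + HGF against activin. DSG3, a desmosome gene with 0 counts in every control library, is left out of both comparisons with control as a point.

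The genes most like CLDN7, CLDN1 and F11R, the members with the largest log2 fold changes, were sought by the root mean square difference of centred log2 CPM over the 9 libraries, among genes with a mean of at least 10 CPM. Genes at 0 in a library and unnamed clone genes were left out. CLDN7 was nearest to NR1D1 (0.216) and FTH1 (0.216), CLDN1 to LINC00662 (0.315) and ABLIM3 (0.347), and F11R to ZBED6 (0.849), the largest of these distances. FTH1, for example, had group means of 1547, 5757 and 9026 CPM where CLDN7 had 55.1, 238 and 302 CPM.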

How the data were processed

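The authors deposited raw read counts per gene, not normalized, and FPKM, their per-length and per-depth values, for 33861 genes in 9 libraries. Submitters' processing notes name cutadapt 1.9, HISAT2 2.0.4 and StringTie 1.3.4d without their roles. The genome build and whether counting used strand are not given in the sources used here. The main test was the quasi-likelihood test of edgeR 4.0.16 under R 4.3.3 on the counts of all 9 libraries, after filterByExpr and TMM scaling, with 3 group means as coefficients and replicate numbers left out. Adjusted p is Benjamini-Hochberg over 20988 genes, and a gene passed under 0.05. CPM are TMM-scaled. On simulated data for activin against control (20045 genes), 79.5% of 200 genes changed by 2 on the log2 scale were recovered, and 5.36% of calls were unchanged genes. The changed genes were drawn only from those above a minimum expected count, and no simulated library was shifted by transcript length. These rates therefore need not hold for smaller changes, for genes with few counts or for the real libraries.

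Alternatives were DESeq2 1.42.0, limma 3.58.1 on log2(FPKM + 1) and log2(FPKM + 0.1) with a filter of 0.5 FPKM in 3 libraries or none, other scalings and filters, a replicate block, 2 groups alone, a 2-fold rule and each library left out. Length-binned scaling and the sum of F11R with its overlapping gene were added after seeing the data. Transcript lengths came from GENCODE v29 (98.3% of tested genes matched), promoters from RefSeq. Python 3.11.15, pandas 2.3.3, numpy 2.4.6, scipy 1.17.1 and matplotlib 3.10.9 made summaries and figures. All 9 members are described. Some genes of the other lists and comparisons are not reported here. Genes of other lists were named if they had the largest change of a list or where a sentence needed them, the latter after their values were seen. The members, lists and tests were chosen with earlier results of these data known. Library totals limit the precision, most of all for CLDN1 and CLDN2, which had the fewest counts.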

Additional observations from a re-analysis of the deposited data

How the results depend on the processing

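Of the alternatives for called changes of single members, 149 kept the direction and the call and 25 kept the direction and lost the call, and of those for changes not called, 373 kept their side, 13 passed and 28 changed sign. The number of members called in activin against control ranged from 1 to 4 with 1 library left out, in activin + HGF against activin from 0 to 3, and in activin + HGF against control from 2 to 6. In activin + HGF against activin, library totals gave 1 and DESeq2 3. In activin + HGF against control, library totals gave 3, limma on log2(FPKM + 1) 3, on log2(FPKM + 0.1) 3 and without a filter 2, and the added 2-fold rule 3. Between libraries of equal replicate number the correlation of deviations was -0.103 to 0.195. Libraries of different number were not compared, so this cannot decide whether the numbers pair the libraries. With the replicate block the counts were 3, 0 and 4, since TJP1 had an edgeR adjusted p of 0.0530. CLDN12 in activin against control (-0.01) gave 0.05 with upper quartile scaling, 0.01 with relative log expression, 0.11 with library totals, 0.01 with 2 groups alone, 0.01 with DESeq2, 0.05 with length bins, and -0.62 to 0.35 with a library left out. TJP1 there gave -0.29 to 0.15 with a library left out, the latter without Activin replicate 2. CLDN4 in activin + HGF against activin gave -0.06 with library totals, -3.05 with the block, -1.57, -2.0 and -1.57 with limma, and -5.44 to 0.93 with a library left out, and against control -0.15 with the block, -0.78, -1.10 and -0.78 with limma and -4.46 to 1.74 with a library left out. CLDN7 in activin + HGF against activin was -0.03 in the 3 limma fits. F11R in activin + HGF against control gave 0.10 summed with its overlapping gene and -0.87 to 0.71 with a library left out, the latter without NC replicate 3. The filter on FPKM removed CLDN1. The causes of these changes were not tested. Library totals moved the median log2 fold change of all genes to -0.38 in activin + HGF against activin and -0.30 against control. The genes called higher there were then 692 of 3108 and 2447 of 6737, beside 1555 of 2698 and 3447 of 6587. Limma on log2(FPKM + 1) gave medians of -0.22 and -0.19 in the same comparisons, with 853 of 3355 and 2246 of 6610 called higher. In activin + HGF against activin, 714 genes were called with those groups alone, 4510 by DESeq2 and 686 to 4533 with a library left out, and in activin against control 2021 to 4729 with a library left out. Depth limits CLDN1 and CLDN2, which had 10 to 171 counts.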
